A study of Mus musculus with 9 samples.

Results

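Cbr2, which encodes a carbonyl reductase, and Cyp2f2, which encodes a cytochrome P450 monooxygenase, were 2 of the 32451 genes or accessions measured in mouse spleen on Agilent one-colour arrays. They were taken by annotation, as every non-control probe whose RefSeq accession belongs to either gene. This gave 3 of 39429 probes, 2 for Cbr2 and 1 for Cyp2f2. Both genes were picked with their values on these arrays known, so their levels and differences are described here without a test.

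The spleens came from female BALB/c mice of a study on dietary selenium (Se) in Graves' disease (GD), an autoimmune disease of the thyroid. Mice without GD on a low dietary Se supply (non-GD, labelled low Se non-GD in the plots) gave 3 arrays. Mice with GD gave 3 arrays on the same low supply (low Se GD) and 3 on a normal supply (normal Se GD). Non-GD and low Se GD share the diet, the GD groups share the disease, and non-GD and normal Se GD differ in both. Each pair of comparisons has a group in common, so they are not independent. A group without GD on a normal supply was not analysed here. The labels give neither the age of the mice, the Se content of the diets nor the way GD was brought about. Nor is it stated that the 3 samples in a group came from separate animals, so the spread within a group, and any p-value built on it, may be technical.

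Carbonyl reductases are NADPH-dependent enzymes that turn aldehydes and ketones into alcohols. Cbr2 is a mitochondrial member of the short-chain dehydrogenase/reductase family that is abundant in mouse lung and is also known from fat cells in culture. Cyp2f2 sits in the membrane of the endoplasmic reticulum, takes its electrons from cytochrome P450 reductase (Por), and is known from the club cells of the airway and from liver, where it turns naphthalene into a reactive epoxide. Neither gene is a standard marker of a spleen cell type.

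The sequences just before the start of both genes are shown because the 2 genes lie on different chromosomes and followed different patterns over the arrays. They are from RefSeq, build GRCm38.p6, 246 bases each, from 250 to 5 bases before the start of the gene, printed on the gene's strand. Capitals mark the motif matches described next.
Cbr2 promoter, chr11:120732026-120732271, minus strand: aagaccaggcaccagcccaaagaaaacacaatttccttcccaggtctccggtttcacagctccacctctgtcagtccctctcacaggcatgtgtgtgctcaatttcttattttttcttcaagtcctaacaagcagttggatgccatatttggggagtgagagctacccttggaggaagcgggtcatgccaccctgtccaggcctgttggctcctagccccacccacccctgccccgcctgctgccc
Cyp2f2 promoter, chr7:27119705-27119950, plus strand: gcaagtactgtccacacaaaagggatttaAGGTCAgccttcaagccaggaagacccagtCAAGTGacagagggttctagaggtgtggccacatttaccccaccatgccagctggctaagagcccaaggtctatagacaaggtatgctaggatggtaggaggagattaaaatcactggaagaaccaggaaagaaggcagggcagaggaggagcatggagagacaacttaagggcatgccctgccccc

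The 5 motifs searched on both strands were the CCAAT box, AGGTCA (a core that many nuclear receptors bind), TTGCNNAA (a core of C/EBP sites), TGACNNNGC (the antioxidant response core) and CACTTG (a core of NKX2-1 sites). The Cyp2f2 window held AGGTCA on the forward strand, starting 221 bases before the gene, and CACTTG on the reverse strand, read as CAAGTG, starting 191 bases before it. The Cbr2 window held no match to the 5 motifs. Of 32851 RefSeq promoters cut to the same window, 13.8% held AGGTCA and 11.5% held CACTTG, against 33.6% for CCAAT, 9.48% for TTGCNNAA and 9.95% for TGACNNNGC. A match describes letters only; none of the motifs overlapped another in these windows, and binding was not measured.

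Each array carried 43020 non-control spots and none was saturated. On 8 arrays 72.6% to 82.6% of these spots were well above background by the scanner's flag, and on normal Se GD replicate 3 it was 58.4%. Arrays with the same scan time in the file headers are called a slide here, and no slide name was read. Slide 1 held non-GD replicates 1 to 3 and low Se GD replicate 1. Slide 2 held replicates 2 and 3 of low Se GD with replicates 1 and 2 of normal Se GD. Slide 3 held only the remaining array, of normal Se GD. Replicate 3 of non-GD lay between the other replicates of its group for 78.3% of 18541 genes, and low Se GD replicate 2 did so for 69.0%, whereas the other arrays did so for 7.42% to 55.0%; these are called the in-between arrays below. A control probe for the adenoviral E1A spike-in (32 spots, mean per array) was at 4.72 to 5.85 on the non-GD arrays, 1.01 to 2.51 on the low Se GD arrays and 0.87 to 2.37 on the normal Se GD arrays, on the normalized log2 scale described next. The ribosomal RNA probe Rn28s1 went the other way, at 0.45 to 0.83, 3.0 to 5.59 and 4.93 to 5.99 in the same order of groups. All 20 markers of spleen cells on the list used here, such as Cd3e, Spic and Madcam1, were well above background on all 9 arrays.

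Cbr2 was measured above background on every array and was lowest in non-GD. The probe with the higher mean signal, used for the gene, had processed signals of 39.9, 19.8 and 30.3 in non-GD replicates 1 to 3, 316, 930 and 1012 in low Se GD, and 695, 767 and 470 in normal Se GD. All 6 GD arrays lay above all 3 non-GD arrays, and the GD groups overlapped. To compare arrays, signals were put on a log2 scale and the array's own 75th percentile was subtracted, so that 0 is a bright spot of that array. On this scale Cbr2 was -4.17 ± 0.61 (SD, n = 3) in non-GD, -0.25 ± 0.46 (SD, n = 3) in low Se GD and 0.09 ± 0.20 (SD, n = 3) in normal Se GD. The share of an array's spots that were dimmer than this probe was 31.5% to 41.8% in non-GD, 68.5% to 76.2% in low Se GD and 74.7% to 77.9% in normal Se GD.

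The other Cbr2 probe gave the same order of groups with smaller differences. Its processed signals were 20.4, 20.2 and 21.2 in non-GD, 56.8, 173 and 191 in low Se GD, and 153, 146 and 86.5 in normal Se GD. It too was well above background on all 9 arrays, with every GD array above every non-GD array. Its means on the normalized log2 scale were -4.66 ± 0.11 (SD, n = 3), -2.69 ± 0.50 (SD, n = 3) and -2.24 ± 0.14 (SD, n = 3). From non-GD to low Se GD it differed by 1.97, against 3.92 for the first probe, and to normal Se GD by 2.41, against 4.26. In non-GD both probes were near the low end of what the arrays measured, since the lowest signals called well above background there were 10.7 to 12.6.

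Cyp2f2 was measured above background in low Se GD only. Its single probe had processed signals of 285, 268 and 58.0 in low Se GD replicates 1 to 3, and was well above background on all 3 of these arrays. In non-GD it was at 2.26, 2.56 and 2.14, and in normal Se GD at 4.02, 7.03 and 4.71, not well above background on any of these 6 arrays. Values below background have no order, so nothing is read from which of these 6 is higher. Within low Se GD the probe was brighter than 67.1% of spots on replicate 1, 58.1% on replicate 2 and 39.7% on replicate 3. On the normalized log2 scale the group means were -7.81 ± 0.16, -2.28 ± 1.57 and -6.85 ± 0.58 (SD, n = 3 each). The SDs of non-GD and normal Se GD are of values below background, so the spreads of the groups are not compared. The gene passed the filter for testing (well above background on at least 3 of the 9 arrays, in any group) through low Se GD alone.

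**Figure D1:**
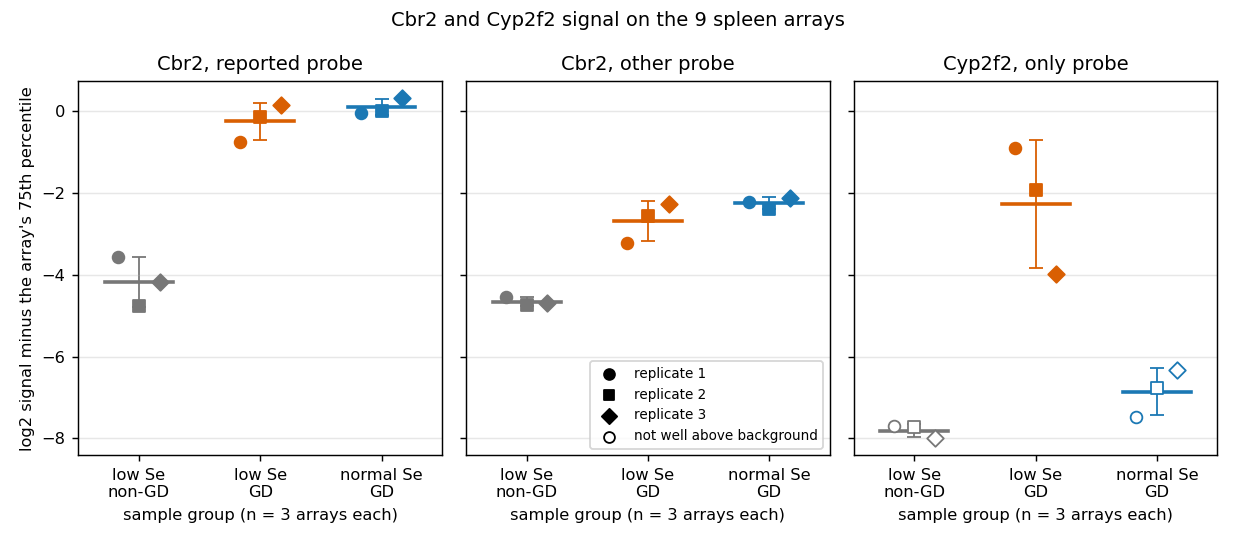
Normalized log2 signal of the 3 probes (vertical axis) in the 3 groups (horizontal axis); each symbol is 1 array, its shape the replicate number, the line the group mean and the bar the SD. Filled symbols are well above background. Both Cbr2 probes are higher on all 6 GD arrays, at group means of -0.25 and 0.09 against -4.17 for the first probe, whereas Cyp2f2 has filled symbols in low Se GD alone.

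Between low Se GD and non-GD, which share the diet, both genes were higher in GD. Cbr2, by its brighter probe, differed by 3.92 (SE 0.33, log2), or 15.1-fold, the 4th highest measured difference of 26325 genes tested. The 3 genes above it include Cyp2f2 as measured. Cyp2f2 differed by 5.53 (SE 0.70) as measured. Since the non-GD values were below background, it is given no rank, and the difference that the arrays bear out is a bound: Cyp2f2 was at least 9.35-fold higher in low Se GD, taking for each non-GD array its lowest signal well above background in place of the Cyp2f2 signal (3.22 on the log2 scale). The bound was 5.82-fold without low Se GD replicate 1 and 16.9-fold without low Se GD replicate 3. For both genes all 3 low Se GD arrays lay above all 3 non-GD arrays, as they did for 29.5% of all tested genes (23.4% lay wholly below), and 24.9% of tested genes had a limma adjusted p under 0.05 (Benjamini-Hochberg over all genes tested), 12.8% higher and 12.2% lower. In a bulk tissue, a gene that is higher in each cell and a gene whose cells are more numerous cannot be told apart.

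Within slide 1, where 1 low Se GD array met 3 non-GD arrays, Cbr2 was 3.41 (SE 0.54) higher and Cyp2f2 at least 24.2-fold higher, the latter resting on that 1 array. Without both in-between arrays Cbr2 was 3.86 higher and Cyp2f2 at least 7.8-fold higher. With normexp background correction, which adds an offset to every signal, the log2 differences were 2.47 for Cbr2 and 1.47 for Cyp2f2. Within each group the arrays ran for Cbr2 in the order opposite to the E1A control probe, an order that 3.82% of tested genes had; its part in the difference was not tested.

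Between normal Se GD and low Se GD, which share the disease, the genes parted. Cbr2 differed by 0.34 (SE 0.33), or 1.27-fold, with overlapping arrays, and 4480 of the 26325 genes had a higher difference. On slide 2, which held 2 arrays of each of these groups, Cbr2 differed by -0.02 (SE 0.12). Cyp2f2 was lower in normal Se GD by a measured -4.58 (SE 0.70), a value that rests on normal Se GD signals below background, with all 3 normal Se GD arrays below all 3 low Se GD arrays, as for 11.4% of tested genes (17.9% lay wholly above). As a bound, it was at least 10.04-fold higher in low Se GD, and at least 10.4-fold within slide 2. This bound was 6.24-fold without low Se GD replicate 1, 18.2-fold without its replicate 3, and 16.7-fold without normal Se GD replicate 3. It is a bound on group means. On normal Se GD replicate 3 the lowest signal well above background was at -4.13 on the normalized log2 scale. Cyp2f2 on low Se GD replicate 3 was at -3.99, so this pair of arrays alone bears out little difference. Of all tested genes 1.27% had a limma adjusted p under 0.05 in this comparison, 0.976% higher and 0.292% lower.

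Between normal Se GD and non-GD, which differ in diet and disease, Cbr2 was 4.26 (SE 0.33) higher, or 19.2-fold, the 2nd highest difference of 26325. All 3 normal Se GD arrays lay above all 3 non-GD arrays, as for 28% of tested genes (21.1% lay wholly below), and 32.3% of genes were called by limma at an adjusted p under 0.05, 18.9% higher and 13.4% lower. These groups share no slide; with slide as a block the difference was 3.39 (SE 0.57). For Cyp2f2 no difference is given, since it was not well above background on any array of either group.

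**Figure D2:**
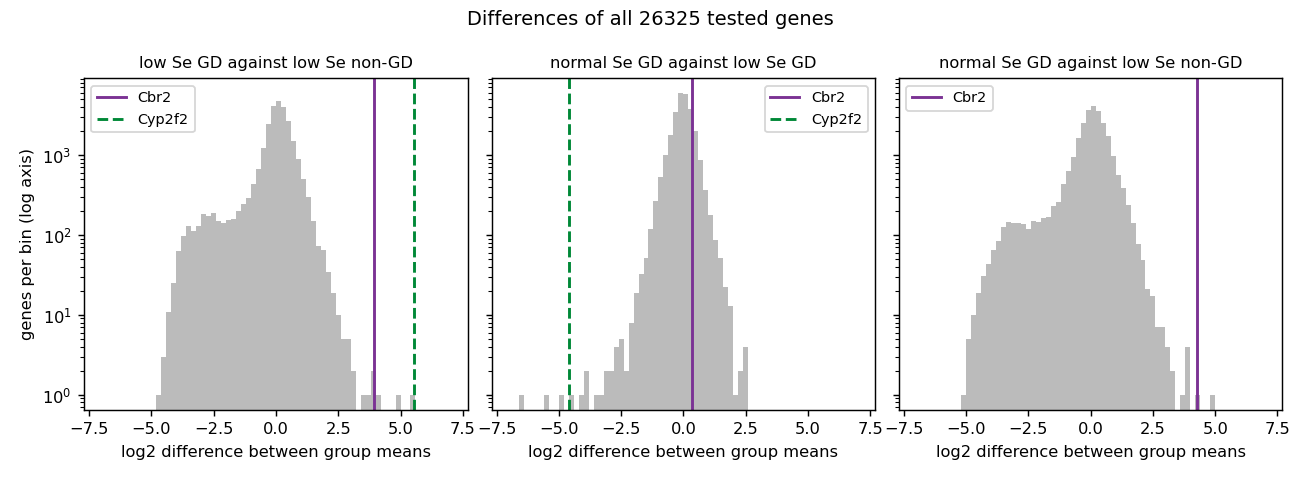
Distribution of the log2 difference between group means (horizontal axis) over all 26325 tested genes (vertical axis: genes per bin, log axis) in the 3 comparisons, with Cbr2 as a solid and Cyp2f2 as a dashed line. Cbr2 lies at 3.92, 0.34 and 4.26, near the upper end where GD is set against non-GD; Cyp2f2 lies at 5.53 and -4.58 as measured, and is not drawn in the last panel, where both groups were below background.

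The authors' deposited log2 table, a separately normalized set of values, showed the same pattern of groups. There Cyp2f2 was at 2.40, 2.38 and 2.38 in non-GD, 8.40, 7.40 and 5.43 in low Se GD and 2.32, 2.53 and 2.33 in normal Se GD. In the authors' deposited table the first Cbr2 probe was at 4.54, 5.08 and 5.65 in non-GD, 8.55, 9.15 and 9.44 in low Se GD and 9.24, 9.28 and 9.64 in normal Se GD. The GD columns followed the order of the normalized scanner values, but the 3 non-GD columns did not: by the scanner replicate 1 was the highest of them for Cbr2, and in the authors' deposited table it was the lowest. Which replicate numbers are right within that group could not be settled, and group means do not depend on it.

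The genes beside Cyp2f2 and Cbr2 on their chromosomes differed far less than they did, or in the other direction. Cyp2f2 lies in a cluster of Cyp2 genes: its 5 nearest genes on one side are Cyp2a12, Cyp2a22, Cyp2a5, Cyp2g1 and Cyp2b19, and on the other Cyp2t4, Egln2, Rab4b, Mia and Snrpa (order of GRCm38.p6). The 3 Cyp2a genes did not pass the filter on dim probes. Cyp2t4, the nearest gene on the other side, was the only tested neighbour of Cyp2f2 called in low Se GD against non-GD. It fell by 2.88 (SE 0.52, limma adjusted p = 0.0069), opposite in sign to the difference of Cyp2f2, a call lost without both in-between arrays (adjusted p = 0.103).

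Beside Cbr2 lie Dcxr, another carbonyl-reducing enzyme, and, a few genes further on the other side, Fasn, the fatty acid synthase. Against non-GD, Dcxr differed by 0.31 in low Se GD (limma adjusted p = 0.104) and rose by 0.58 in normal Se GD (adjusted p = 0.00889), and Fasn differed by 0.52 (adjusted p = 0.247) and -0.10 (adjusted p = 0.826). Of 9 tested neighbours of Cbr2, Cenpx, a centromere protein gene, was the only one called in low Se GD against non-GD, at 0.57 (adjusted p = 0.00482).

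The gene lists that follow hold relatives of the 2 enzymes and markers of cell types and tissues. Calls on them are by limma at an adjusted p under 0.05 over all genes, and are to be read against the shares of all genes given with the comparisons above. They depend on few arrays: without both in-between arrays 269 of all genes were called in low Se GD against non-GD in place of 6556, and of the 14 lists 3 had any call there, with 1 gene each, called lower (carbonyl-reducing enzymes, the Cyp2 family, and the list of electron donors and conjugation). Between the GD groups the only list calls were 2 adipocyte genes, called lower, and 1 macrophage and 2 spleen markers, called higher. All of these were lost without any single array other than normal Se GD replicate 3. Counts of list genes at an unadjusted p under 0.05 have another background. By limma 9908 of the 26325 tested genes were under it in low Se GD against non-GD (5568 without both in-between arrays). Between the GD groups 5112 were, and in normal Se GD against non-GD 11280.

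Other carbonyl-reducing enzymes showed small differences beside that of Cbr2. Of 36 tested short-chain dehydrogenases, aldo-keto reductases and relatives (Cbr2 not among them), 5 rose and 3 fell in low Se GD against non-GD, with a median difference of 0.15 against 0.08 for all genes. In normal Se GD against non-GD 11 rose and 2 fell (median 0.16, all genes 0.06). Between the GD groups limma called none at an adjusted p under 0.05, with 9 of 36 at an unadjusted p under 0.05. Leaving out single arrays gave 1 to 10 higher calls in low Se GD: 1 without low Se GD replicate 2, 2 without non-GD replicate 2 or 3, 3 without non-GD replicate 1 or low Se GD replicate 3, and 10 without normal Se GD replicate 3. In normal Se GD it gave 7 (without non-GD replicate 3) to 14 (without normal Se GD replicate 3), and with slide as a fixed block 3 rose and 3 fell there.

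Decr2, a peroxisomal reductase used in breaking down unsaturated fatty acids, fell by 1.59 (SE 0.13, limma adjusted p = 0.000492) in low Se GD and by 1.34 (adjusted p = 0.000611) in normal Se GD against non-GD. These calls held under all alternatives run. Akr1b7, an aldo-keto reductase, rose by 1.42 (SE 0.27, adjusted p = 0.00853) and 1.33 (adjusted p = 0.00854), calls lost with slide as a fixed block (adjusted p = 0.0792 and 0.194). Of the other carbonyl reductases named with Cbr2, Cbr1 differed by 0.14 (adjusted p = 0.375) in low Se GD, Cbr3 rose by 0.46 (adjusted p = 0.0107) and Cbr4 differed by 0.31 (adjusted p = 0.0701). None of the 3 came near the 3.92 of Cbr2.

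Of 35 other Cyp2 genes tested, 1 rose and 5 fell in low Se GD against non-GD (median -0.10). Over all tested genes 12.8% were called higher and 12.2% lower in that comparison. In normal Se GD against non-GD 1 Cyp2 gene rose and 6 fell (median -0.22), beside 18.9% higher and 13.4% lower over all tested genes. Between the GD groups limma called none at an adjusted p under 0.05, with 3 of 35 at an unadjusted p under 0.05 (median -0.07). Cyp2b10, a drug-inducible P450 above background on 1 of 3 non-GD arrays, was the only one that rose, by 1.14 (adjusted p = 0.0148) in low Se GD, a call lost without non-GD replicate 2 (adjusted p = 0.0505), non-GD replicate 3 (0.0583) or low Se GD replicate 2 (0.0518), and its difference was -0.17 with normexp. In normal Se GD its rise of 0.84 (adjusted p = 0.0367) was lost without any 1 array other than replicates 1 and 3 of low Se GD and replicate 3 of normal Se GD. Without normal Se GD replicate 3, 4 Cyp2 genes rose and 8 fell in low Se GD, and 7 rose and 6 fell in normal Se GD; without non-GD replicate 2, 3 fell in normal Se GD. With slide as a fixed block 2 rose in low Se GD.

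Cyp2c29, a P450 known from liver, fell by 2.998 (SE 0.47, limma adjusted p = 0.00422) in low Se GD and by 3.33 (adjusted p = 0.00211) in normal Se GD, the latter under all alternatives. The E1A control probe was higher on the non-GD arrays too, at 4.72 to 5.85 against at most 2.51 on GD arrays, so genes that fell against non-GD moved with it. Its part in the falls of Cyp2c29, Cyp2t4 and others was not tested.

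Cyp2e1, the P450 of ethanol and small solvents, which liver also expresses, had a pattern like that of Cyp2f2. It was at -1.13, -1.48 and -1.27 on the normalized log2 scale in non-GD, 2.30, 1.36 and -0.94 in low Se GD and -2.23, -2.12 and -3.42 in normal Se GD. All low Se GD arrays lay above all other arrays, and as for Cyp2f2 replicate 1 was highest and replicate 3 lowest. Its differences, 2.20 from non-GD (limma adjusted p = 0.0706) and -3.50 between the GD groups (adjusted p = 0.0682), did not pass the threshold. It was picked out after its values were seen. Signal shared between near-identical Cyp2 genes cannot be told apart from a gene's own, as probe sequences were not used here.

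Among 26 other tested P450 genes, 5 rose and 2 fell in low Se GD against non-GD (median 0.22), and 7 rose and 1 fell in normal Se GD against non-GD (median 0.26). The 5 were 2 without non-GD replicate 2 or 3 or low Se GD replicate 2, 3 without low Se GD replicate 1 or 3 or normal Se GD replicate 1 or 2, and 8 without normal Se GD replicate 3; the 7 were 4 without non-GD replicate 3 or normal Se GD replicate 1 or 2. The 2 that fell in low Se GD were 1 without non-GD replicate 2 or 3, low Se GD replicate 2 or 3, or normal Se GD replicate 2. Cyp4b1, a P450 known from lung, rose by 1.82 (limma adjusted p = 0.00574) in low Se GD. Cyp27a1, a sterol hydroxylase, differed by 0.38 in low Se GD and rose by 1.28 (adjusted p = 0.00268) in normal Se GD, the latter under all alternatives.

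The partners of the reaction that Cyp2f2 carries out were well above background on all 9 arrays. Por, which feeds electrons to it, differed by 0.33 (limma adjusted p = 0.107) in low Se GD and 0.05 (adjusted p = 0.796) in normal Se GD against non-GD. The epoxide hydrolases Ephx1 and Ephx2 differed by -0.08 (adjusted p = 0.692) and 0.51 (adjusted p = 0.0687) in low Se GD. Of 29 tested genes of electron transfer and of epoxide or glutathione conjugation, 3 rose and 3 fell in low Se GD and 5 rose and 2 fell in normal Se GD, against non-GD. The 5 were 1 without non-GD replicate 3, 2 without low Se GD replicate 2 or normal Se GD replicate 1 or 2, and 3 without non-GD replicate 2, and 4 fell in place of 2 without normal Se GD replicate 3; the 3 that rose in low Se GD were 5 without non-GD replicate 1 and 9 without normal Se GD replicate 3. With slide as a fixed block the split in normal Se GD turned, to 1 that rose and 3 that fell. Mgst1, a membrane-bound glutathione transferase, rose by 1.13 (adjusted p = 0.00903) in low Se GD. Gstm7, a cytosolic one, fell by 3.86 (SE 0.26, adjusted p = 0.000254) there and by 2.99 (adjusted p = 0.000478) in normal Se GD, under all alternatives.

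Genes of fat cells were high on the arrays where Cyp2f2 was high. Fabp4, the fatty acid carrier of adipocytes, was at 1.38, -1.63 and 0.57 on the normalized log2 scale in non-GD replicates 1 to 3, 5.5, 4.46 and 2.11 in low Se GD, and -1.04, -0.96 and -0.91 in normal Se GD. Adipoq, the hormone adiponectin, was at -1.97, -5.40 and -2.85, then 1.40, 0.43 and -1.52, then -5.62, -5.81 and -5.04 in the same order. Both were higher on each low Se GD array than on any other array, and within low Se GD replicate 1 was highest and replicate 3 lowest, as for Cyp2f2. The same order within low Se GD was found for 14 of 18 tested adipocyte genes (77.8%) and for 35.4% of all tested genes.

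Of these 18 adipocyte genes, 9 rose and 1 fell in low Se GD against non-GD (median 1.13, all genes 0.08), and 0 rose and 2 fell in normal Se GD against low Se GD (median -1.08, all genes 0.0003). Against non-GD, Fabp4 rose by 3.91 (SE 0.97, limma adjusted p = 0.0223) and Adipoq by 3.51 (adjusted p = 0.0343) in low Se GD, whereas Lipe, the hormone-sensitive lipase of fat cells, fell by 1.91 (adjusted p = 0.0296). Between the GD groups Adipoq fell by 5.59 (adjusted p = 0.0448) and Slc2a4, the insulin-responsive glucose transporter, by 1.41 (adjusted p = 0.0448). Cfd, complement factor D of fat, and Car3, a carbonic anhydrase of fat and muscle, had wider differences, 4.98 and 4.02 in low Se GD against non-GD, and did not pass the threshold (adjusted p = 0.118 and 0.0566).

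The 9 adipocyte genes called higher in low Se GD were 4 without non-GD replicate 2 or 3 or low Se GD replicate 2, 5 without low Se GD replicate 1, 6 without normal Se GD replicate 1 or 2, and 0 without both in-between arrays (10 at an unadjusted p under 0.05 by limma). Fabp4 lost its call without non-GD replicate 2 or 3 or low Se GD replicate 1 or 2 (limma adjusted p = 0.057 to 0.0807), and so did Adipoq (0.0724 to 0.109), which lost it also without normal Se GD replicate 1 (0.0542) or 2 (0.052). Lipe lost its call without non-GD replicate 2 or 3 or any low Se GD replicate (0.0657 to 0.095). With slide as a fixed block the calls of Adipoq (0.0534) and Lipe (0.066) in low Se GD were lost too. The 2 calls between the GD groups became 3 without normal Se GD replicate 3. Adipoq and Slc2a4 each lost theirs with slide as a fixed block (limma adjusted p = 0.0613 and 0.0509), quantile normalization (0.0653 and 0.0672), the replicate block (0.156 for both) and in the authors' deposited table (0.0695 and 0.0775), and kept them under 5 of 22 and 6 of 23 alternatives.

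Summed over the 20 adipocyte genes on the list, the level was 3.54 to 4.25 (log2) in non-GD, 4.48 to 6.60 in low Se GD and 3.78 to 3.90 in normal Se GD; Lep, leptin, was not well above background on any array. Replicate 1 of non-GD and replicate 3 of low Se GD were close in this sum, at 4.25 and 4.48. On the latter 11 of 18 tested adipocyte genes were higher, with a median difference of 0.31. Over all tested genes 13922 of 26325 were higher on it, with a median difference of 0.03. Cyp2f2 was not well above background on non-GD replicate 1, at a signal of 2.26, and well above it on low Se GD replicate 3, at 58.0. This pair of arrays was chosen after the values were seen, and the part of fat RNA in the Cyp2f2 signal was not tested. Cbr2 ran opposite to Fabp4 and Adipoq within low Se GD, from -0.76 in replicate 1 to 0.14 in replicate 3, and was as high in normal Se GD, where the summed level was low.

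**Figure D3:**
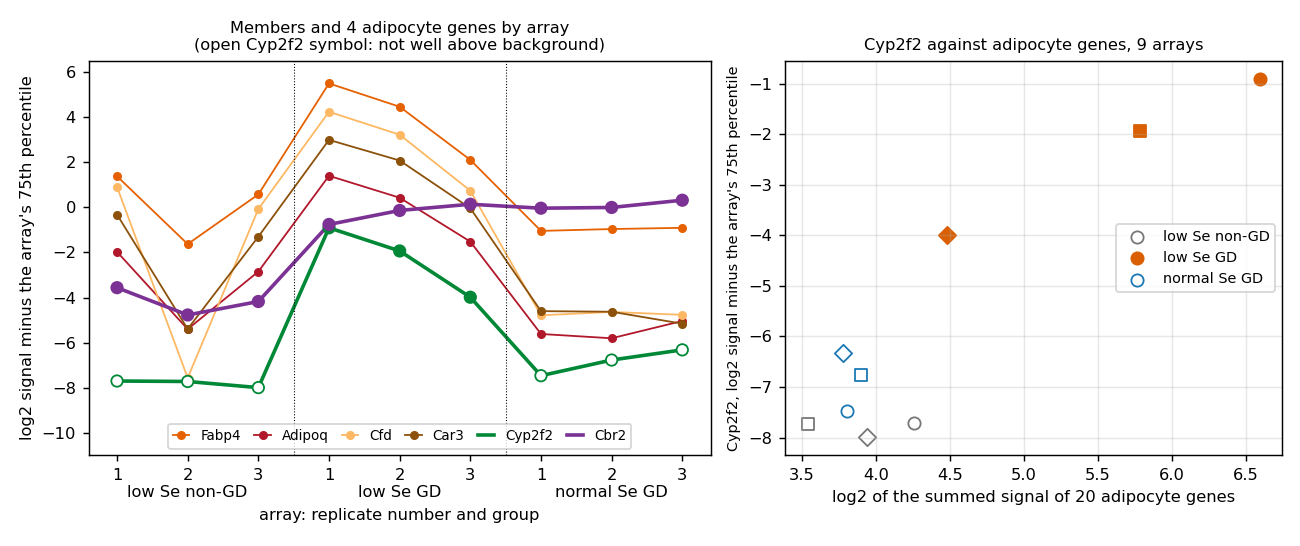
Left, normalized log2 signal (vertical axis) of Cyp2f2, Cbr2 and 4 adipocyte genes on the 9 arrays (horizontal axis, by group and replicate); right, Cyp2f2 (vertical axis) against the log2 summed signal of 20 adipocyte genes (horizontal axis), 1 symbol per array. Open Cyp2f2 symbols are not well above background. The 3 low Se GD arrays, at summed levels of 4.48 to 6.60, are the only ones with Cyp2f2 above background, and Cbr2 stays near 0 in normal Se GD where Adipoq is at -5.81 to -5.04.

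Enzymes of fat synthesis and genes of brown fat had lower medians. Of 14 lipogenic genes 5 rose and 1 fell in low Se GD against non-GD (median 0.64), and between the GD groups limma called none at an adjusted p under 0.05 (4 at an unadjusted p under 0.05). The 5 were 2 without low Se GD replicate 2, 3 without any non-GD replicate or without normal Se GD replicate 1 or 2, 7 without low Se GD replicate 3 or normal Se GD replicate 3, and 8 with slide as a fixed block. Thrsp, a nuclear protein that promotes lipogenesis, rose by 2.87 (limma adjusted p = 0.0156), and at an adjusted p of 0.0598 it was not called once replicate 2 of low Se GD was left out. Of 8 tested brown fat genes 1 rose and 1 fell: Cox8b, a muscle and brown fat subunit of cytochrome c oxidase above background on 1 of 3 non-GD arrays, rose by 2.64 (adjusted p = 0.0128, and 0.052 without low Se GD replicate 2), and Ppargc1a, a coactivator of mitochondrial genes, fell by 0.76 (adjusted p = 0.0131, and 0.052 and 0.0541 without replicate 3 of non-GD and replicate 2 of low Se GD). Ucp1, the uncoupling protein that defines brown fat, was not well above background on any array.

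Lung is where both genes are best known, and of its 18 listed markers 5 were well above background on all 9 arrays and 4 on none. The brightest were Lamp3, which dendritic cells also express, with group means of 2.25, 2.16 and 2.02, and Aldh1a1, an aldehyde dehydrogenase of many tissues, at 1.1, 2.20 and 1.39 (normalized log2 scale; picked out after their values were seen). Scgb1a1, the secretoglobin that defines club cells, was at -3.43 to -3.28 on the normalized log2 scale in non-GD, -3.22 to -3.05 in low Se GD and -4.34 to -2.97 in normal Se GD, and differed by 0.23 between low Se GD and non-GD (limma adjusted p = 0.657). Nkx2-1 and Sftpa1, which define lung epithelium, were not well above background on any array, nor were Cckar and Bpifa1. Of 13 tested lung markers 1 rose and 3 fell in low Se GD against non-GD (median -0.09), and between the GD groups limma called none at an adjusted p under 0.05 (1 at an unadjusted p under 0.05). The 1 that rose, Sftpd, a surfactant protein, was at 0.54 (adjusted p = 0.0492) and lost its call without any 1 array other than normal Se GD replicate 3. Foxj1, of ciliated cells, fell by 2.44 (adjusted p = 0.0023). The list's summed level was 2.82 to 3.36 in non-GD, 3.16 to 3.45 in low Se GD and 2.83 to 3.06 in normal Se GD.

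Liver, pancreas and mesothelium are other tissues that could come with a spleen sample. Of 13 tested hepatocyte markers 0 rose and 1 fell in low Se GD against non-GD by limma at an adjusted p under 0.05, with 8 at an unadjusted p under 0.05; 3 rose without non-GD replicate 1, 2 without normal Se GD replicate 3, and 1 without non-GD replicate 2 or low Se GD replicate 3. With slide as a fixed block 3 rose and 3 fell. The gene that fell, Ttr, the carrier of thyroid hormone and retinol, was at least 6.62-fold higher in non-GD, as it was not well above background on any GD array. Alb, serum albumin, was above background on 2 of 3 arrays in each group and differed by 0.21 (adjusted p = 0.755). Summed hepatocyte markers were at 3.91 to 4.30 in non-GD, 4.42 to 5.0 in low Se GD and 4.14 to 4.83 in normal Se GD, so the low Se GD arrays lay above the non-GD arrays; the part of liver RNA in the Cyp2f2 signal was not tested. Of 13 pancreas markers 0 rose and 1 fell (4 at an unadjusted p under 0.05), and of 11 mesothelial markers 0 were called (1 at an unadjusted p under 0.05). Without normal Se GD replicate 3, 3 pancreas and 1 mesothelial marker rose and 1 mesothelial marker fell, without non-GD replicate 1, 1 of each rose, without non-GD replicate 2, 2 mesothelial markers fell, and without low Se GD replicate 3 or normal Se GD replicate 2, 1 pancreas marker rose. With slide as a fixed block 3 pancreas markers and 1 mesothelial marker rose, and 1 of each fell. Mesothelial markers summed to 0.13 to 2.03, 0.37 to 1.29 and 0.03 to 0.66, and 10 of the 11 ran within low Se GD in the same order as Cyp2f2.

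Some markers of tissue-resident macrophages were higher in both GD groups, as Cbr2 was. Of 15 tested, 6 rose and 0 fell in low Se GD against non-GD (median 0.55), and 6 rose and 0 fell in normal Se GD (median 0.52), with 7 and 10 at an unadjusted p under 0.05 by limma. Mrc1, the mannose receptor, rose by 2.005 (SE 0.34, adjusted p = 0.00561) and 1.72 (adjusted p = 0.00775), calls lost with slide as a fixed block (adjusted p = 0.0532 and 0.161). Fcna, a ficolin of macrophages, rose by 1.38 in normal Se GD (adjusted p = 0.00121) under all alternatives. In normal Se GD the 6 calls were 3 without non-GD replicate 2 or normal Se GD replicate 1, and in low Se GD they were 1 within slide 1. The summed level was 5.68 to 6.05 in non-GD, 6.25 to 6.30 in low Se GD and 6.29 to 6.37 in normal Se GD, moving with Cbr2; its part in Cbr2 was not tested.

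Among 20 spleen markers 3 rose and 4 fell in low Se GD, and 7 rose and 2 fell in normal Se GD, both against non-GD. With slide as a fixed block 1 rose and 1 fell in normal Se GD. Siglec1, a receptor of macrophages, rose by 1.97 in normal Se GD (limma adjusted p = 0.0014) under all alternatives. Of 14 stromal markers 4 rose and 3 fell in low Se GD, and Pdgfra, a receptor of fibroblasts and fat precursors, rose by 1.32 (adjusted p = 0.0121). The 4 were 1 without non-GD replicate 3 or low Se GD replicate 2, and 2 without non-GD replicate 2 or low Se GD replicate 1 or 3.

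**Figure D4:**
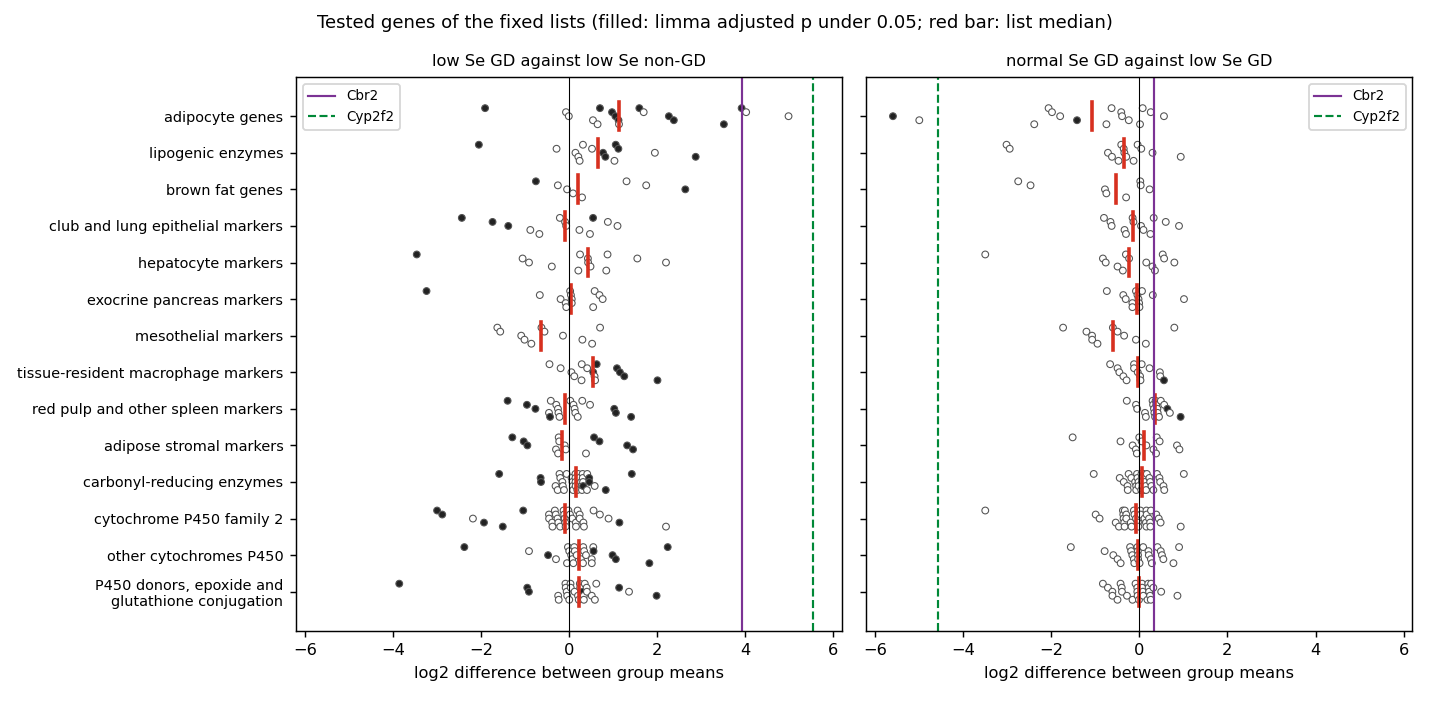
Log2 difference between group means (horizontal axis) of each tested gene of 14 gene lists (vertical axis) in low Se GD against non-GD (left) and normal Se GD against low Se GD (right); filled points passed limma's adjusted p of 0.05, the red bar is the list's median, and the lines mark Cbr2 (solid) and Cyp2f2 (dashed). Adipocyte genes have the highest median on the left, 1.13, and the lowest on the right, -1.08. The dashed lines stand at the measured 5.53 and -4.58. At its bound of 3.22 on the left Cyp2f2 would lie below adipocyte genes such as Cfd (4.98), Car3 (4.02), Fabp4 (3.91) and Adipoq (3.51).

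The genes most like Cbr2 over the 9 arrays, by Pearson's r of normalized log2 values, were Nek1 (r = 0.998), Nubp2, Caap1, Akap12, Calr, Ap3s1, Mfsd10 and Prpf4b (r = 0.993). Of the 26324 other tested genes 6.23% had r above 0.9 with Cbr2, and 0.349% with Cyp2f2. All 8 genes most like Cbr2 were well above background on every array. They were higher on all GD arrays than on any non-GD array, which their choice by r makes likely. Their differences between low Se GD and non-GD were smaller than that of Cbr2: Nek1, a protein kinase, had group means of -3.45, -2.23 and -2.07 (non-GD, then the low and the normal Se GD arrays). With group means taken out, r of these 8 with Cbr2 was 0.887 to 0.960.

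The genes most like Cyp2f2 were Hmg20b (r = 0.983), Cpt2, Lmbrd1, Slc31a1, Acadvl, Klf15, Nfatc2ip and Cdo1 (r = 0.957). Cpt2 and Acadvl are mitochondrial enzymes of fatty acid oxidation, and Cdo1 is cysteine dioxygenase. Cdo1 was at -4.51, -4.71 and -4.54 in non-GD, -1.57, -2.37 and -3.93 in low Se GD and -4.61, -4.58 and -4.23 in normal Se GD, with all low Se GD arrays above all others. With group means taken out, r of the 8 genes with Cyp2f2 was 0.749 to 0.963. The median r with Cyp2f2 was 0.765 over the 18 adipocyte genes and 0.0764 over all tested genes. With Cbr2 it was 0.723 over the 15 macrophage markers, 0.327 over the adipocyte genes and 0.134 over all. Between Cbr2 and Cyp2f2 r was 0.512, and -0.423 with group means taken out. These 9 arrays form 3 groups and 6 of the Cyp2f2 values are below background, so the coefficients describe likeness of pattern only.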

How the data were processed

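Spleen RNA was run on Agilent one-colour arrays, and the deposited scanner files hold intensities per spot, written by version 11.0.1.1 of Agilent's Feature Extraction software, per the file headers; processed signals, already corrected by the scanner software, were used. Log2 signal minus each array's 75th percentile over non-control spots was compared. Spots marked as outliers were left out, spots of a probe averaged, and each gene represented by its probe with the highest mean. Accessions named 27234 of 39429 probes through RefSeq. Genes well above background on at least 3 of the 9 arrays, in any group, were tested: 26325, with 6078 dim and 48 with marked spots left out. All 3 groups entered 1 limma fit (R 4.3.3, limma 3.58.1; lmFit, eBayes, Benjamini-Hochberg, threshold 0.05, two-sided), checked on simulated data. Figures used Python 3.11.15 and matplotlib 3.10.9. The authors' deposited log2 table, for which the sources used here name no normalization, was an alternative.

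Both genes and all gene lists were chosen with earlier results of these data known. Of each list, up to 2 called genes in each direction with the widest differences and no overlap, and defining markers, were named; others were chosen after their values were seen. The files hold no mean spot signal, so normexp (offset 50) used median signals. The number of arrays limits the precision.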

Additional observations from a re-analysis of the deposited data

How the results depend on the processing

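The signs of all Cbr2 and Cyp2f2 differences held under every alternative, except that Cbr2 between the GD groups, 0.34, was -0.021 with slide as a fixed block and within slide 2. Low Se GD against non-GD, Cbr2 was 2.47 with normexp and 2.94 as the mean of its probes, and Cyp2f2 1.47 with normexp and 3.22 with a floor at the lowest signal well above background. Normal Se GD against low Se GD, Cyp2f2 was -1.54 with normexp. Normal Se GD against non-GD, Cbr2 was 2.75 with normexp, 3.39 with slide as a fixed block and 3.34 as the mean of its probes. No Cyp2f2 value is given there, since both groups were below background. Leaving out single arrays moved Cbr2 over 3.62 to 4.22, 0.09 to 0.54 and 3.96 to 4.57, and Cyp2f2 over 4.85 to 6.39 and -5.43 to -3.89. The Cyp2f2 bounds under left-out arrays and within slides were chosen after seeing the data.

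Counts of called genes moved far more. In low Se GD against non-GD, 6556 genes became 940 within slide 1, 269 without both in-between arrays (chosen after seeing the data), and 3448 to 10787 without single arrays: 3448 without low Se GD replicate 2, 3547 and 4352 without non-GD replicates 3 and 2, 10787 without normal Se GD replicate 3. In normal Se GD against low Se GD, 334 became 46 with quantile normalization, 3 with the authors' deposited table, 0 with normexp, median centring, the replicate block, no filter on dim probes, only the 2 groups compared or neither in-between array (2385 to 5565 at an unadjusted p under 0.05 by limma), 1288 with genes above background on all 9 arrays, 1713 with slide as a fixed and 1939 as a random block, 2794 within slide 2, and 0 to 1076 without single arrays: 1076 without normal Se GD replicate 3, and 0 or 1 without any other. In normal Se GD against non-GD, 8514 became 5552 with normexp, 4828 with slide as a fixed block and 3044 without both in-between arrays, and 5415 to 11538 without single arrays, the lowest without non-GD replicate 3. The split of calls in low Se GD against non-GD, 3357 higher and 3199 lower, was 3919 and 2768 with quantile normalization and 2248 and 3254 with normexp. Between same-numbered arrays, deviations from group means correlated at -0.21 to 0.10. Whether arrays were paired cannot be decided from this, as groups are small and the non-GD replicate numbers are unsettled. The replicate block gave 5150, 0 and 7186 calls and left the Cbr2 and Cyp2f2 differences unchanged.

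Reversed among named genes were Sftpd in low Se GD against non-GD as the mean of its probes (-0.17), Lyve1 (-0.084) and Cyp2b10 (-0.17) there with normexp, and in normal Se GD against non-GD Cyb5r3 as the mean of its probes (0.70) and Cd79b with quantile normalization (0.13) and in the authors' deposited table (0.14). The causes were not tested. The median of all genes moved from 0.08 to 0.18 with median centring and -0.16 with normexp in the first comparison.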
